A study of Mus musculus with 10 samples.

Results

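The respiratory chain genes described here were the 108 protein-coding genes, of 49671 gene IDs counted, whose GENCODE M21 symbol begins with mt-, Nduf, Uqcr, Sdh or Atp5 or names a cytochrome c oxidase subunit from Cox4 to Cox8, other than Cox7a1 and Cox8b. The mitochondrial genome encodes 13 of them and the nuclear genome 95. They were measured by polyA RNA-seq of whole skin from mice aged 22 weeks. One group held 5 wildtype siblings (WT, NPY +/+; 2 labelled female and 3 labelled male). The other held 5 homozygous mutants (NPYtet, NPY tet/tet; 3 labelled female and 2 labelled male), and both came from the strain B6;129S4-Npytm2Rpa/J, which carries a targeted allele of Npy, the gene for neuropeptide Y. The allele is present from conception and in every cell, so a difference in skin cannot be assigned to a cell type or an age from these labels. In bulk skin, fewer cells of a type and less RNA per cell cannot be told apart.

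The respiratory chain is built from both genomes. Complexes I (NADH dehydrogenase), III (cytochrome bc1) and IV (cytochrome c oxidase), and the ATP synthase, complex V, combine a few core subunits made inside the mitochondrion with many imported ones, whereas complex II (succinate dehydrogenase) is wholly nuclear. Mitochondrial genes are transcribed as long joined RNAs from which single messages are cut, while each nuclear gene has its own promoter, and skin draws on both in epidermis, hair follicle, fat and the thin muscle layer beneath.

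Npy itself was counted at 1.39, 2.86, 0.0940, 1.32 and 2.17 CPM in WT replicates 1 to 5 and 96.2, 245, 166, 129.6 and 485 CPM in NPYtet replicates 1 to 5 (counts per 1000000 after TMM scaling), so the groups did not overlap in the gene that carries the allele. Libraries held 23209405 to 53357695 reads assigned to genes. NPYtet replicate 5 and WT replicate 2 stood apart: their TMM scaling factors were 0.652 and 0.696, against 0.898 to 1.21 in the other libraries, and they had reads for the fewest genes, 19953 and 21144. NPYtet replicate 1, labelled female, had 0.0492 CPM of Xist, the RNA of the silenced X chromosome, and 37.2 CPM of the Y-linked Ddx3y, whereas the other female-labelled libraries had at least 333 CPM of Xist and 0 of Ddx3y. Its label was kept as given, and it is referred to as a library labelled female.

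The counts of the mitochondrial genes have to be read with their sequences, because part of the mitochondrial genome also stands, nearly letter for letter, on chromosome 1. Below are 75 bases of mt-Co3, which encodes a core subunit of complex IV, and the matching stretch of the unprocessed pseudogene Gm28437. They are followed by the first 60 bases that mt-Co1, the catalytic subunit of complex IV, shares with the pseudogene Gm29216, where the capital marks the differing base (GENCODE M21 transcripts, build GRCm38).
mt-Co3, chrM:8907-8981, plus strand: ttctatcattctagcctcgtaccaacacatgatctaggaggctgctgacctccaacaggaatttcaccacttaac
Gm28437, chr1:24613597-24613671, minus strand: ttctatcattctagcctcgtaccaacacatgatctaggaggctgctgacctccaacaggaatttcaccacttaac
mt-Co1, chrM:6390-6449, plus strand: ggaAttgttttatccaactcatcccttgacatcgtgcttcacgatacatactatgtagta
Gm29216, chr1:24616129-24616188, minus strand: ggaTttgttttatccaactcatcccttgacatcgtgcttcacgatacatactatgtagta
The mt-Co3 stretch had no difference from its copy, and all 783 aligned bases of that gene were identical. For mt-Co1, 482 of 483 aligned bases were identical, and the single substitution was A1066T, counted from 1 at the 5′ end of mt-Co1 with the mitochondrial base first.

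The chromosome 1 block holds 7 annotated pseudogenes between positions 24611535 and 24616197, matching mt-Co1, mt-Co2, mt-Atp6, mt-Co3, mt-Nd3, mt-Nd4l and mt-Nd4 in mitochondrial order. To see how much of each gene a short read could share with another place, every 75-base window was looked up in all other annotated transcripts. At least 97.8% of the windows of mt-Nd3, mt-Nd4l, mt-Atp6, mt-Co2 and mt-Co3 occurred in another gene, and these 5 genes had at most 93 reads in any library. mt-Nd4 shared 61.5% of its windows and mt-Co1 39.8%, and their counts ranged from 38029 to 173201 and from 118146 to 584897 reads. mt-Nd1, mt-Cytb and mt-Nd6 shared none, with at least 4088 reads. mt-Atp8, with 0 to 2 reads, shared no window with an annotated gene, but its counterpart would fall between Gm10925, which ends at 24614651, and Gm28661, which starts at 24614885, and that gap was not read here.

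**Figure D1:**
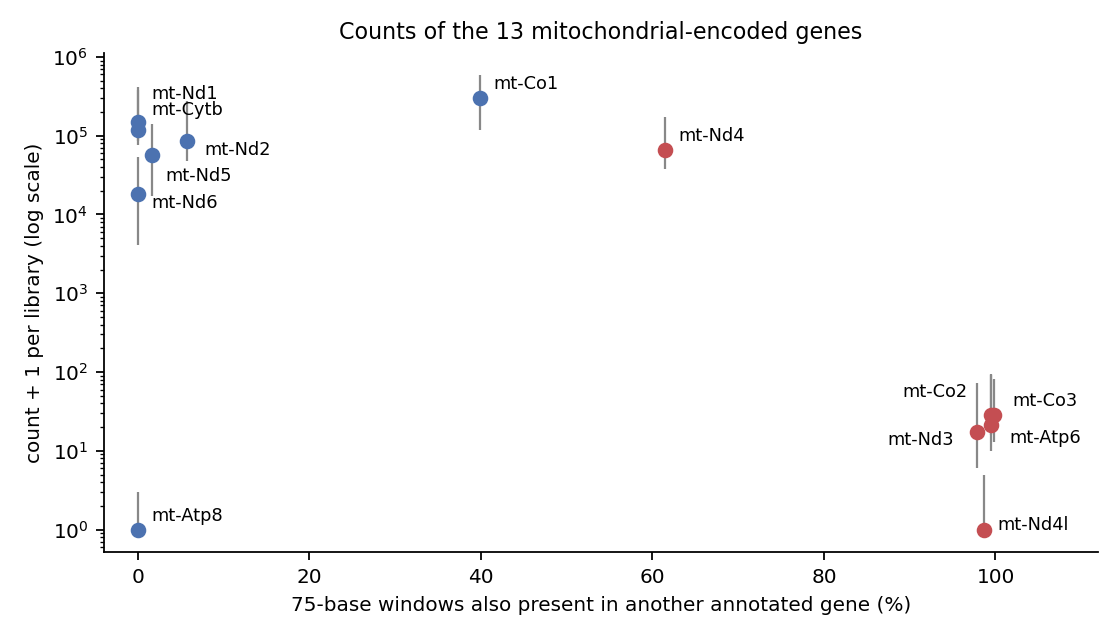
Count plus 1 per library (log axis) of each mitochondrial-encoded gene against the percentage of its 75-base windows found in another annotated gene; points are medians over 10 libraries, lines run from the lowest to the highest library, and red marks genes with more than 50% of the windows shared. The 5 genes at 97.8% or more lie below 100 reads, with mt-Atp8 the gene of few reads at 0%.

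The copies were themselves counted low, with 23 to 180 reads per library for Gm28437 and 5 to 49 for Gm28439, the copy of mt-Nd4. How the authors' counting treated reads that match both places (not given in the sources used here) was not tested as a part of the low counts. The levels of mt-Co2, mt-Co3, mt-Atp6, mt-Nd3, mt-Nd4l and mt-Atp8 below therefore cannot be set beside those of the other mitochondrial genes. Those of mt-Nd4 and mt-Co1, with part of their windows shared, may also miss reads.

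Mitochondrial-encoded genes held a small and similar share of reads in 9 libraries and a larger one in the tenth. The sums take in the 6 genes of few reads, so they may miss reads that also match chromosome 1, and the same holds for the ratios between the genomes below. The summed counts were 2.01, 1.66, 2.50, 2.79 and 1.84 percent in WT replicates 1 to 5 and 1.67, 1.75, 2.45, 2.27 and 8.05 percent in NPYtet replicates 1 to 5. All WT values and NPYtet replicates 1 to 4 lay between 1.66% and 2.79%, and NPYtet replicate 5 lay above them all at 8.05%. The means were 2.16 ± 0.471% in WT and 3.24 ± 2.71% in NPYtet (SD, n = 5 each), and the NPYtet mean without replicate 5 was 2.03 ± 0.383% (SD, n = 4). Nuclear-encoded genes summed to 0.951, 1.21, 1.03, 1.04 and 1.21 percent in WT replicates 1 to 5 and 0.980, 1.01, 1.04, 0.901 and 1.45 percent in NPYtet replicates 1 to 5, with NPYtet replicate 5 again highest and the groups overlapping.

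**Figure D2:**
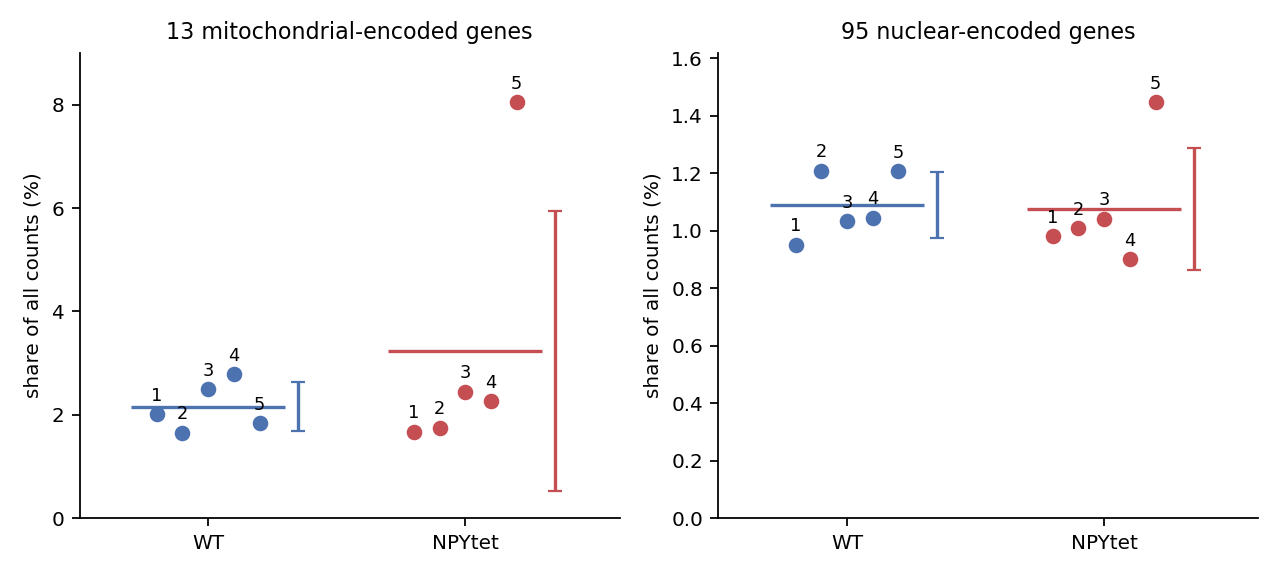
Share of all counts (percent) held by the 13 mitochondrial-encoded genes (left) and the 95 nuclear-encoded genes (right) in each library; points are libraries with their replicate number, horizontal lines are group means and bars are SD (n = 5). NPYtet replicate 5 is the highest point in both panels, at 8.05% and 1.45%.

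Among the genes of complex I in the mitochondrial genome, mt-Nd1, a subunit of the proton-pumping arm, was counted at 2222, 5478, 2912, 3520.3 and 3765 CPM in WT replicates 1 to 5 and 2669, 3003, 2862, 2579.5 and 24856 CPM in NPYtet replicates 1 to 5. WT replicate 2 was the highest WT library, and NPYtet replicate 5 lay 8.61-fold above the median of the 8 libraries other than these. mt-Nd2 of the same arm stood at 1755, 3149, 2501, 2566 and 2171 CPM in WT replicates 1 to 5 and 1159.9, 1861, 2437, 2196 and 18401 CPM in NPYtet replicates 1 to 5. mt-Nd4 stood at 1345, 2225, 1724, 1871 and 1924 CPM in WT replicates 1 to 5 and 967, 1209.8, 1905, 1566 and 11461 CPM in NPYtet replicates 1 to 5. In both, NPYtet replicate 5 alone lay far above the range of the other 9 libraries.
mt-Nd5, which follows mt-Nd4 on the genome, was counted at 1501, 2144, 1745, 1439 and 1161 CPM in WT replicates 1 to 5 and 419, 688, 1315, 1629 and 9308 CPM in NPYtet replicates 1 to 5. Its lowest libraries were NPYtet replicates 1 and 2, below every WT library. mt-Nd6, the one protein gene read from the other strand, stood at 427, 501, 496, 457 and 348 CPM in WT replicates 1 to 5 and 101, 132, 532, 449 and 3512 CPM in NPYtet replicates 1 to 5, and the same 2 libraries were lowest. mt-Nd6 and mt-Nd5 overlap at their ends on opposite strands, and the strand setting of the counting was not given in the sources used here, so their reads cannot be told apart in the overlap.

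For complex III, mt-Cytb, which encodes cytochrome b, was counted at 3605, 4062, 4102, 5059.9 and 3725 CPM in WT replicates 1 to 5 and 2938, 3108, 4241, 3666 and 27516 CPM in NPYtet replicates 1 to 5. For complex IV, mt-Co1 stood at 6363, 6247, 7990.0, 9681 and 7359.9 CPM in WT replicates 1 to 5 and 7336, 6966, 7048, 6981 and 28521 CPM in NPYtet replicates 1 to 5. mt-Co1 held 23.1% to 47.1% of the mitochondrial-encoded reads counted. Outside the genes of few reads it was the least raised in NPYtet replicate 5, at 3.97 times the median of the 8 libraries, against 7.45 for mt-Cytb and 8.43 for mt-Nd2. Reads that also match chromosome 1 may be missing from mt-Co1, with 39.8% of its windows shared, and from the genes of few reads. The same holds for mt-Nd4, with 61.5% shared. mt-Nd4 stood at 11461 CPM in NPYtet replicate 5, against 967 to 1905 CPM in the other NPYtet libraries. The part of such reads in the share and in this order was not tested. The genes of few reads, mt-Co2, mt-Co3, mt-Atp6 and mt-Nd3, were between 0.129 and 1.38 CPM in the 9 other libraries and between 4.76 and 6.15 CPM in NPYtet replicate 5. mt-Nd4l was read in WT replicates 4 and 5 and NPYtet replicate 1 and mt-Atp8 in 4 libraries, and neither passed the filter on low counts.

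No mitochondrial-encoded gene passed the genotype test, and the direction of all of them rested on 1 library. edgeR's quasi-likelihood test, with sex as labelled in the model and Benjamini-Hochberg adjustment over 18060 genes, gave log2 fold changes (NPYtet over WT) of 0.89 (SE 0.51) for mt-Nd1, 0.59 (SE 0.43) for mt-Co1, 0.87 (SE 0.54) for mt-Cytb and 0.56 (SE 0.63) for mt-Nd5, each with an adjusted p of 0.999. Without NPYtet replicate 5 the same values were -0.12 (SE 0.31), -0.04 (SE 0.29), -0.21 (SE 0.29) and -0.77 (SE 0.44). The other tested genes followed: 0.90 (SE 0.57) for mt-Nd2, 0.80 (SE 0.53) for mt-Nd4, 0.86 (SE 0.76) for mt-Nd6, 0.85 (SE 0.61) for mt-Nd3, 0.92 (SE 0.61) for mt-Co2, 0.98 (SE 0.60) for mt-Co3 and 1.14 (SE 0.64) for mt-Atp6. The median over the 11 tested was 0.87 with all libraries, -0.046 by limma voom and -0.25 without NPYtet replicate 5, so 11 of 11 were positive in one fit and 11 of 11 negative in the other.

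Ribosomal RNA genes of the mitochondrion, mt-Rnr1 and mt-Rnr2, were also highest in NPYtet replicate 5: together they took 0.144% to 0.365% of counts in the 9 other libraries and 1.21% in that one. CT010467.1, a gene at a nuclear ribosomal RNA locus, took 4.40% there and 1.67% in WT replicate 2, against at most 0.41% elsewhere. Their part in the mitochondrial values was not tested.

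Nuclear-encoded subunits were expressed well above the typical gene. On a scale of CPM per kb of transcript, averaged over the 10 libraries, the median subunit level was 92.1 in complex I (36 genes), 70.8 in complex II (4 genes), 225 in complex III (8 genes), 139 in complex IV (18 genes) and 246 in complex V (16 genes), against 7.53 over 15246 tested protein-coding genes. The 13 assembly and related factors, which build or tend the complexes without being lasting subunits, had a median of 9.45 CPM per kb. The highest level in each complex was that of Ndufb9 at 203 CPM per kb, Sdhb at 102 CPM per kb, Uqcrh at 404 CPM per kb, Cox6c at 497 CPM per kb and Atp5b at 641 CPM per kb. Cox4i1 followed Cox6c at 477 CPM per kb. The mean of Cox6c took in 912 CPM in NPYtet replicate 5, against 126 to 329 CPM in the other libraries. Its place as the highest of complex IV leaned on that library, so the order of these 2 is not settled.

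In complex I, Ndufb3, an accessory subunit of the membrane arm, had the smallest genotype p of all members. It was counted at 51.6, 63.9, 65.9, 61.5 and 58.4 CPM in WT replicates 1 to 5 and 60.6, 48.5, 71.3, 63.4 and 254 CPM in NPYtet replicates 1 to 5. The first 9 libraries overlapped freely, and NPYtet replicate 5 alone was high. The log2 fold change was 0.72 (SE 0.38), with an unadjusted p of 0.0798 and an adjusted p of 0.999 by edgeR, and -0.01 (SE 0.23) without NPYtet replicate 5. Ndufs4, an accessory subunit whose loss in mice causes a Leigh-like brain disease, stood at 48.8, 53.7, 55.3, 55.9 and 53.7 CPM in WT replicates 1 to 5 and 46.9, 49.4, 57.8, 48.5 and 240.4 CPM in NPYtet replicates 1 to 5. Its WT values spanned only 48.8 to 55.9 CPM, and its log2 fold change went from 0.69 (SE 0.39) to -0.05 (SE 0.21) without that library. Ndufa1, needed to assemble the membrane arm, averaged 44.2 ± 8.99 CPM (WT) and 68.7 ± 65.6 CPM (NPYtet) (SD, n = 5 each), and Ndufb9 148 ± 54.9 CPM (WT) and 139 ± 49.3 CPM (NPYtet). Ndufb4 averaged 16.3 ± 8.28 CPM (WT) and 26.1 ± 34.0 CPM (NPYtet).

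In complex II, Sdha and Sdhb went opposite ways in NPYtet replicate 5 and WT replicate 2. Sdha, the flavoprotein that oxidises succinate, was counted at 217, 64.7, 238, 217 and 173 CPM in WT replicates 1 to 5 and 208, 229, 221, 243 and 93.0 CPM in NPYtet replicates 1 to 5. Both NPYtet replicate 5 and WT replicate 2 were low, below every other library. Low values there were not particular to complex II. Ndufs1 of complex I stood at 0.706 times the median of the 8 other libraries in NPYtet replicate 5 and 0.274 times in WT replicate 2. Sdhb, its iron-sulfur partner, stood at 93.0, 194, 94.7, 98.6 and 139.7 CPM in WT replicates 1 to 5 and 88.2, 94.4, 95.1, 76.5 and 188 CPM in NPYtet replicates 1 to 5, and the same 2 libraries were the highest. The ratio of Sdha to Sdhb reads was 0.33 in WT replicate 2 and 0.49 in NPYtet replicate 5, against 1.24 to 3.18 in the other 8. Sdhc, a membrane anchor, averaged 152 ± 58.2 CPM (WT) and 129 ± 11.6 CPM (NPYtet). The genotype log2 fold changes were 0.03 (SE 0.35) for Sdha, -0.07 (SE 0.29) for Sdhb and -0.14 (SE 0.29) for Sdhc.

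In complex III, Uqcrb, a small subunit beside cytochrome b, was counted at 62.1, 116, 61.9, 73.5 and 67.3 CPM in WT replicates 1 to 5 and 57.8, 49.9, 69.7, 56.8 and 539 CPM in NPYtet replicates 1 to 5. NPYtet replicate 5 lay 8.70-fold above the median of the 8 libraries, the largest such ratio of any nuclear member with reads. Uqcrh, the hinge protein that meets cytochrome c, averaged 176 ± 48.1 CPM (WT) and 266 ± 295 CPM (NPYtet), and Uqcr10 79.1 ± 27.3 CPM (WT) and 89.4 ± 73.2 CPM (NPYtet). Their log2 fold changes were 0.88 (SE 0.51), 0.59 (SE 0.42) and 0.29 (SE 0.34), and -0.27 (SE 0.29), -0.24 (SE 0.28) and -0.24 (SE 0.28) without NPYtet replicate 5.

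In complex V, Atp5b, the catalytic beta subunit, was counted at 1045, 2334, 967, 1125 and 1814 CPM in WT replicates 1 to 5 and 1004, 1489, 873, 865 and 765 CPM in NPYtet replicates 1 to 5. WT replicates 2 and 5 were highest and NPYtet replicate 5 lowest. Atp5a1, the alpha subunit, averaged 910.3 ± 222 CPM (WT) and 729 ± 162 CPM (NPYtet). Atp5mpl, a small proteolipid of the complex, stood at 54.5, 122, 48.8, 65.0 and 84.1 CPM in WT replicates 1 to 5 and 49.5, 48.2, 48.7, 35.8 and 386 CPM in NPYtet replicates 1 to 5, with NPYtet replicate 5 7.86 times the median of the 8 libraries. Atp5l averaged 9.18 ± 1.63 CPM (WT) and 12.8 ± 9.65 CPM (NPYtet), but 76.0% of its windows occur in another gene, led by the processed pseudogene Gm10221, so its level is uncertain. The log2 fold changes were -0.39 (SE 0.34) for Atp5b, -0.24 (SE 0.31) for Atp5a1, 0.53 (SE 0.46) for Atp5mpl and 0.53 (SE 0.37) for Atp5l.

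Complex IV brings several pairs of isoforms, one broad and one tied to a tissue or condition, and the broad form was higher in every library for Cox4i, Cox6a and Cox6b. Cox6c averaged 200.2 ± 80.7 CPM (WT) and 299.7 ± 343 CPM (NPYtet), Cox7b 109 ± 30.4 CPM (WT) and 184 ± 226 CPM (NPYtet), Cox5a 46.9 ± 7.50 CPM (WT) and 37.1 ± 4.25 CPM (NPYtet) and Cox8a 171 ± 84.4 CPM (WT) and 158 ± 63.0 CPM (NPYtet). Cox4i1, the usual form of subunit 4, averaged 372 ± 232 CPM (WT) and 339.6 ± 214 CPM (NPYtet), and Cox4i2, known from lung and from oxygen sensing, 3.68 ± 2.08 CPM (WT) and 3.85 ± 3.98 CPM (NPYtet). Cox6b1 averaged 200.3 ± 93.9 CPM (WT) and 267 ± 301 CPM (NPYtet), and its testis form Cox6b2 4.83 ± 2.59 CPM (WT) and 5.63 ± 2.97 CPM (NPYtet). Cox7a2 averaged 109.6 ± 38.9 CPM (WT) and 155 ± 159.9 CPM (NPYtet) and Cox7a2l, which joins complexes III and IV, 141 ± 27.3 CPM (WT) and 143 ± 31.2 CPM (NPYtet). Cox7b2 and Cox8c, both known from testis, had 0 reads in all 10 libraries, which allows up to 3 reads in each.
Cox6a2, the form of heart and skeletal muscle, was counted at 18.5, 47.2, 48.0, 27.1 and 18.5 CPM in WT replicates 1 to 5 and 32.3, 18.9, 39.6, 28.1 and 106 CPM in NPYtet replicates 1 to 5. Cox6a1, the broad form, stood at 115, 357, 109, 134 and 232 CPM in WT replicates 1 to 5 and 131, 144, 116, 96.4 and 423 CPM in NPYtet replicates 1 to 5. The ratio of Cox6a2 to Cox6a1 reads ran from 0.0798 to 0.442 in WT and from 0.131 to 0.341 in NPYtet, so the groups overlapped. The skeletal muscle marker list summed to 4514 to 13441 CPM in WT and 5493 to 10545 CPM in NPYtet, and its part in the Cox6a2 values was not tested.
Ndufa4, named for complex I but a subunit of complex IV, was counted at 110.5, 272, 129, 160.1 and 196 CPM in WT replicates 1 to 5 and 133, 172, 144, 120.1 and 742 CPM in NPYtet replicates 1 to 5. Its paralog Ndufa4l2, known as a target of hypoxia signalling, stood at 55.0, 90.7, 189, 76.7 and 122 CPM in WT replicates 1 to 5 and 207, 54.8, 88.8, 87.2 and 222 CPM in NPYtet replicates 1 to 5. The paralog exceeded Ndufa4 in WT replicate 3, with a ratio of 1.47, and in the library labelled female NPYtet replicate 1, with 1.56, and was below it in the other 8. The log2 fold changes were 0.64 (SE 0.38) for Ndufa4, 0.29 (SE 0.43) for Ndufa4l2, 0.51 (SE 0.45) for Cox6a2, 0.14 (SE 0.35) for Cox6a1, 0.08 (SE 0.38) for Cox4i1 and 0.22 (SE 0.49) for Cox4i2.

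Assembly factors were lower than the subunits. Sdhaf4, which helps mature Sdha, averaged 5.88 ± 1.18 CPM (WT) and 9.15 ± 6.41 CPM (NPYtet), Ndufaf2, a complex I chaperone, 9.89 ± 1.10 CPM (WT) and 12.8 ± 9.14 CPM (NPYtet), and Ndufaf6 6.34 ± 1.29 CPM (WT) and 4.85 ± 1.38 CPM (NPYtet). Sdhaf1 averaged 2.67 ± 1.25 CPM (WT) and 3.61 ± 3.13 CPM (NPYtet), with 68.7% of its windows lying in the overlapping gene E130208F15Rik. Of the 13 factors 11 had positive log2 fold changes, with a median of 0.28, and none passed. Without NPYtet replicate 5 the median was -0.072, with 4 positive and 9 negative.

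Over both genomes, 104 of the 108 members passed the filter on low counts (all but mt-Atp8, mt-Nd4l, Cox7b2 and Cox8c) and 0 of 104 were called by genotype, where 0.00554% of all tested genes (1 gene, Npy) were. At an unadjusted p under 0.05 there were 0 members, against 3.59% of all genes, and DESeq2 and limma voom also called 0. The groups did not overlap in CPM for 0 of 104 members, against 0.305% of genes. The median log2 fold change was 0.19 over the 93 tested nuclear members, with 73 positive and 20 negative, and -0.0099 over all genes. Complex II ran from -0.14 to 0.035, complex III from -0.010 to 0.88, complex IV from -0.28 to 0.68 and complex V from -0.39 to 0.53. By complex the median was 0.19 in complex I, -0.039 in complex II, 0.096 in complex III, 0.26 in complex IV and 0.17 in complex V. Without NPYtet replicate 5 the nuclear median was -0.18, with 83 of 93 negative, by limma voom it was -0.14, and without NPYtet replicate 1 it was 0.18 (mitochondrial 1.04). Without replicate 5 the values by complex were -0.17, 0.039, -0.22, -0.24 and -0.16.

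**Figure D3:**
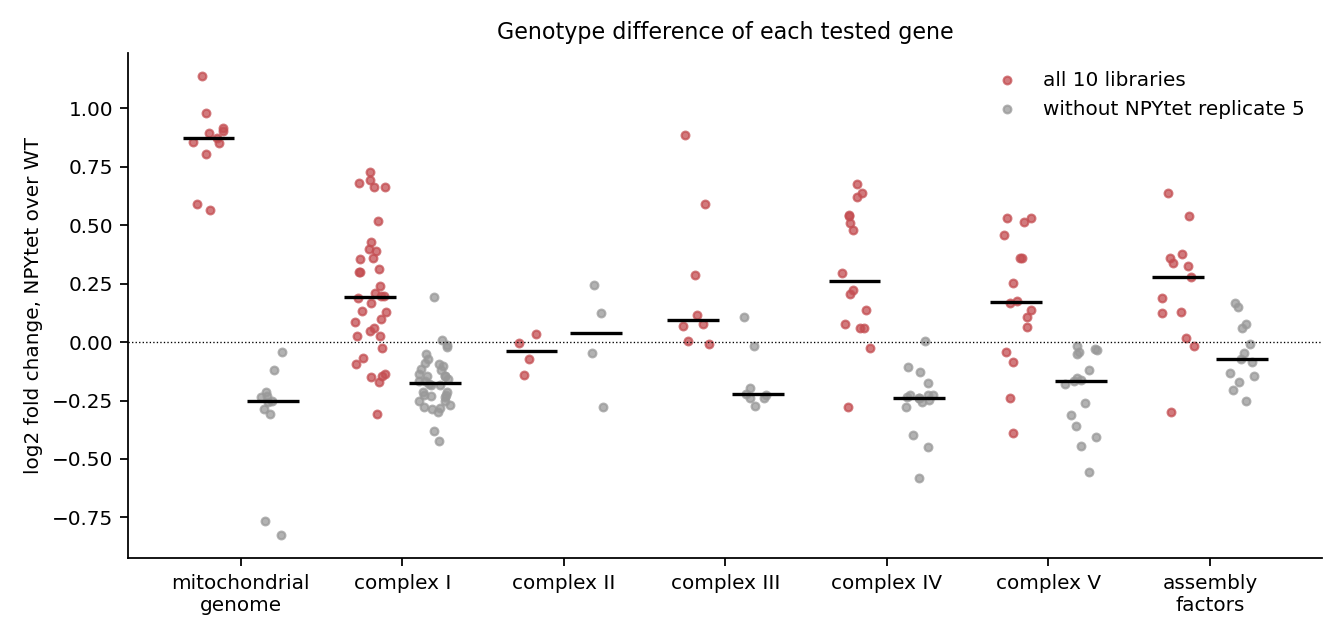
Genotype log2 fold change (NPYtet over WT, edgeR) of each tested gene, grouped as mitochondrial-encoded, nuclear subunits of complexes I to V and assembly factors; red points use all 10 libraries, grey points leave out NPYtet replicate 5, and black lines are medians. The mitochondrial median moves from 0.87 to -0.25.

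The ratio between the genomes needs no scaling factor. Mitochondrial-encoded reads per nuclear-encoded read were 2.12, 1.37, 2.42, 2.67 and 1.52 reads in WT replicates 1 to 5 and 1.71, 1.73, 2.35, 2.52 and 5.57 reads in NPYtet replicates 1 to 5. NPYtet replicate 5 was highest, WT replicates 2 and 5 lowest, and the groups overlapped. The log2 ratio was 0.97 ± 0.42 in WT and 1.32 ± 0.69 in NPYtet (SD, n = 5 each), a difference of 0.35, smaller than either SD, and 0.066 without NPYtet replicate 5. Within complex I the ratio was 11.4 in that library and 2.34 to 4.42 in the others. Within complex III it was 8.56 there, against 1.67 to 5.25. Within complex IV, mt-Co1 supplies nearly all mitochondrial reads counted. The ratio was 4.70 in NPYtet replicate 5 and 1.88 to 6.09 elsewhere, so that library did not stand apart in the complex IV ratio. Both parts of the ratio were highest there. Mitochondrial-encoded genes of complex IV held 1.86% of counts, against 0.434% to 1.10% elsewhere. Its nuclear subunits held 0.396%, against 0.150% to 0.231%.

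In the libraries that stood apart, short nuclear messages were higher in the median than long ones. In CPM after TMM scaling, NPYtet replicate 5 was the highest library for 73 of 104 members (70.2%), against 17.8% of all tested genes. It was also the highest for 11 of 11 tested mitochondrial members. The TMM factors of 0.652 and 0.696 raise every CPM of NPYtet replicate 5 and WT replicate 2 over its unscaled value. Ranks without scaling were not computed. Each nuclear member's deviation from its own median over the 10 libraries was set against the length of its transcript. In NPYtet replicate 5 the 56 members under 1000 nt had a median deviation of 1.59 and the 9 members of 2000 nt or more 0.024, both on the log2 scale. In WT replicate 2 these were 0.93 and 0.087, and in WT replicate 5 0.57 and -0.33. In the other 7 libraries the 2 classes differed by at most 0.27. The 9 long members were mixed, and Sdhaf1, Sdhaf2, Sdhaf3 and Ndufaf4 among them are assembly factors, so length and role were not separated. Sdha, Ndufs1 and Sdhaf2 stood at 0.424, 0.706 and 0.760 times the median of the 8 libraries in NPYtet replicate 5, and at 0.295, 0.274 and 0.323 in WT replicate 2. Sdhaf1, Sdhaf3 and Ndufaf4 were instead highest in scaled CPM in NPYtet replicate 5, at 4.17, 2.10 and 1.95 times that median. The remaining Ndufa10, Sdhc and Atp5a1 stood at 1.25, 1.04 and 0.736 times. These ranks depend on the scaling: Ndufaf4 had 491 of 23209405 reads in NPYtet replicate 5 and a larger share, 1658 of 53357695, in WT replicate 4. The same classes over all tested protein-coding genes differed by 1.33 in NPYtet replicate 5 and 0.92 in WT replicate 2, so genes outside the respiratory chain showed it too in these. In WT replicate 5 they differed by only 0.29, near in size to the -0.28 of NPYtet replicate 4. Spearman's rho across the 93 nuclear members, which share library and depth, was -0.55 in NPYtet replicate 5 and -0.36 in WT replicate 2. In the other libraries it ran from -0.40 (NPYtet replicate 1) to 0.40 (NPYtet replicate 4), so the value of WT replicate 2 was no larger than values of either sign elsewhere.

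**Figure D4:**
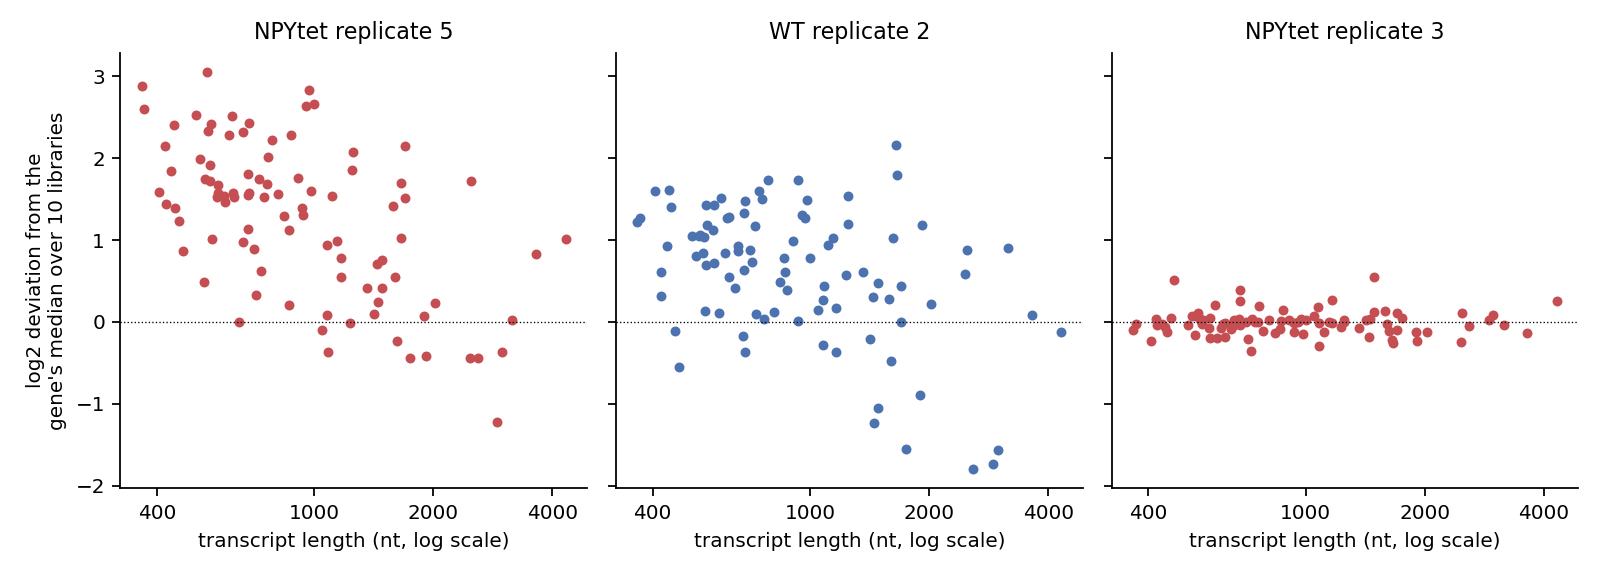
Log2 deviation of each of the 93 tested nuclear-encoded members from its median over 10 libraries, against transcript length in nt (log axis), in NPYtet replicate 5, WT replicate 2 and, for comparison, NPYtet replicate 3. Short members have a higher median than long ones in the first and second panels, with long members on both sides of 0, and the classes differ by 0.032 in the third.

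By sex as labelled, most members had higher values in males, without passing adjustment. Of 104 members 0 were called by edgeR, where 2.48% of all genes were, and 54 had an unadjusted p under 0.05 with males higher, where 13.1% of all genes did. No member had such a p with males lower, where 11.5% of genes did. The count rests on the tool and the libraries: DESeq2 called 37 members and 12.9% of all genes, and limma voom 21 members and 31% of all genes. edgeR called 27 members and 7.24% of genes with no filter on low counts, 31 and 14.9% without WT replicate 4, and 13 and 2.35% without NPYtet replicate 2. The smallest adjusted p among members, by edgeR, was that of mt-Nd3, with a log2 difference (male over female) of 2.43 (SE 0.63, adjusted p = 0.0546). That gene had only 5 to 72 reads per library, most in NPYtet replicate 5, and 97.8% of its windows occur in another gene. Ndufa4 had 1.30 (SE 0.38, adjusted p = 0.0791) by edgeR, Cox6a1 1.21 (SE 0.35, adjusted p = 0.0787) and Atp5mpl 1.54 (SE 0.47, adjusted p = 0.0863). NPYtet replicate 5, WT replicate 2 and WT replicate 5, the libraries of the length pattern, are all labelled male, and the other 2 male-labelled libraries lacked the pattern, with differences between the length classes of -0.018 in WT replicate 4 and -0.16 in NPYtet replicate 2. The medians were 1.35 for mitochondrial and 0.72 for nuclear members, and 0.17 and 0.26 without NPYtet replicate 5 and WT replicate 2. Leaving out the library labelled female, NPYtet replicate 1, gave 1.14 and 0.79, with 0 called.
With both outlying libraries left out, 1 member was called by sex, Cox6b2, which was lower in males by a log2 difference of -1.46 (SE 0.33, edgeR adjusted p = 0.0487), where 3.64% of all genes were called.

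Within the female-labelled mice the genotype medians were -0.052 for mitochondrial and 0.0028 for nuclear members, with 0 of 104 at an unadjusted p under 0.05, against 2.48% of genes. Without the library labelled female NPYtet replicate 1 they were 0.098 and -0.020, with 0 called. In the mice labelled male they were 1.71 and 0.43. There 11 members had such a p with NPYtet higher, against 3.01% of genes, while 0 passed adjustment. NPYtet males are 2 libraries, one of them replicate 5: without it the male medians were -0.72 and -0.60, and without replicate 2, which left replicate 5 as the lone NPYtet male, 15 members and 1.97% of all genes were called, with the lone mouse assumed to vary like the other groups. The difference between the sexes as labelled was tested directly and gave 0 calls and 0 members at an unadjusted p under 0.05, against 1.63% of genes.

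Genes that regulate, build or feed the chain were read from lists. No gene of the 9 lists was called by genotype, and the list medians lay between -0.14 and -0.0050. At an unadjusted p under 0.05 there were 0 genes, against 3.59% of all tested genes. Among 11 nuclear regulators 4 were positive and 7 negative; Nrf1, the nuclear respiratory factor, averaged 38.0 ± 6.17 CPM (WT) and 29.4 ± 8.81 CPM (NPYtet; log2 fold change -0.36, SE 0.30). Among 15 genes of mitochondrial DNA transcription and copying, Twnk, the helicase of mitochondrial DNA, stood at 29.5 ± 5.11 and 17.8 ± 7.57 CPM (log2 fold change -0.71, SE 0.37, edgeR adjusted p = 0.999). Mterf4 of that list had -0.35 and Ppargc1b, a coactivator, -0.26. Among 19 genes of mitochondrial RNA processing 15 were negative, with Ptcd1 at -0.62 and Rexo2 at -0.36. Of 77 tested mitochondrial ribosomal proteins 31 were positive and 46 negative, led by Mrpl33 at 0.92 (SE 0.45) and Mrps18c at 0.95 (SE 0.50). In the citric acid cycle list, Mdh2 had -0.35. Coq4 of coenzyme Q synthesis had -0.51 and Cycs, cytochrome c, 0.28. Coa7 and Coa6, which serve complex IV assembly, had -0.40 and 0.58, Timmdc1 and Atpaf1, which serve complexes I and V, -0.34 and -0.39, and the import genes Tomm7 and Dnajc19 0.55 and 0.45. None of these passed the test. In the named genes with positive values the NPYtet SD was close to the mean or above it. NPYtet values were 31.7 ± 35.4 CPM for Mrpl33, 17.0 ± 22.4 for Mrps18c and 20.5 ± 23.1 for Coa6. They were 98.1 ± 93.5 CPM for Tomm7, 33.6 ± 28.7 for Dnajc19 and 67.4 ± 59.4 for Cycs. Values of these genes without NPYtet replicate 5 are not given.

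Summed markers of the cell types that whole skin can hold overlapped between the groups in every list given below by its range. The thermogenic adipocyte list, cells rich in mitochondria, summed to 101 to 414 CPM in WT and 101 to 404 CPM in NPYtet, and the white adipocyte list to 1538 to 5424 CPM in WT and 2558 to 6749 CPM in NPYtet. Keratinocyte markers summed to 12507 to 64735 CPM in WT and 21198 to 44596 CPM in NPYtet. Hair matrix and shaft markers summed to 37.2 to 5503 CPM in WT and 18.0 to 4032 CPM in NPYtet, with 9 of 9 log2 fold changes negative (median -4.13). Of these, 3 had an unadjusted p under 0.05, against 3.59% of all tested genes in either direction, and 0 were called. Of the 10 libraries, WT replicate 2 and NPYtet replicate 5 were the highest 2 for keratinocyte, white adipocyte, hair matrix and smooth muscle markers. In hair matrix markers NPYtet replicate 5 had 4032 CPM and the next NPYtet library 305 CPM. Their part in the values of respiratory chain genes was not tested. Dermal fibroblast markers summed to 11299.9 to 60403 CPM in WT and 10671 to 73326 CPM in NPYtet, leukocyte markers to 585 to 2558 CPM in WT and 1129.9 to 2523 CPM in NPYtet, red blood cell markers to 87.1 to 309 CPM in WT and 59.1 to 342 CPM in NPYtet and smooth muscle markers to 507 to 1808 CPM in WT and 618 to 1227 CPM in NPYtet. Sebocyte markers averaged 1541 ± 637 CPM (WT) and 2178 ± 587 CPM (NPYtet), and endothelial cell markers 173 ± 38.7 and 215 ± 38.2 CPM (SD, n = 5 each). Every marker gene found in the files had reads in at least 1 library. No gene of these lists was called by genotype. Of the lists other than hair matrix, some genes had an unadjusted p under 0.05, all higher in NPYtet. They were 3 of 10 white adipocyte genes, 2 of 6 dermal fibroblast genes and 1 each of 9 thermogenic adipocyte, 8 sebocyte and 7 leukocyte genes. Over all tested genes the share was 3.59% in either direction. The median log2 fold changes of the lists were 0.65 for white adipocyte, 0.29 for thermogenic adipocyte, 0.68 for dermal fibroblast, 0.61 for sebocyte, 0.36 for endothelial cell, 0.29 for leukocyte, 0.26 for red blood cell, 0.078 for keratinocyte, -0.015 for smooth muscle and -0.14 for skeletal muscle.

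Promoters of the nuclear members held certain letters, which the rule did not use, more often than all promoters did. The promoter sets were not matched for base composition. RefSeq promoters (GRCm38.p6, 250 bases before to 50 after the start) matched 76 of 95 nuclear members with 81 windows. The site of nuclear respiratory factor 1, searched as GCGCANGCG on both strands, was in 30.9% of them and in 6.25% of all 32851 promoters of that length. The ETS site CCGGAAG, bound by GABPA among others, was in 25.9% against 8.86%, and the YY1 site AAGATGGCG in 9.88% against 1.40%. Bases upstream of the RefSeq start are shown for 3 named members whose promoters hold these letters, with the matches in capitals.
Sdha, chr13:74350241-74350358, minus strand: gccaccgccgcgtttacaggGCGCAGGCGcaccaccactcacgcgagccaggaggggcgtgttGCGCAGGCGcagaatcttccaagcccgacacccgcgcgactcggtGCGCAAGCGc
Cox6a1, chr5:115348959-115349140, minus strand: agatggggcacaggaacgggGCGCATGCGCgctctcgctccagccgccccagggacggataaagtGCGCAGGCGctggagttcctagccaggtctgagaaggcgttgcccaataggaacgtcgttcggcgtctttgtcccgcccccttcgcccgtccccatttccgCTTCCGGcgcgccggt
Uqcrh, chr4:116075071-116075100, minus strand: actacgaggagtatgccgcaCTTCCGGcca
The capitals in Sdha are nuclear respiratory factor 1 letters, those in Uqcrh an ETS match on the other strand, and Cox6a1 holds both kinds. By GENCODE M21, Sdha starts at 74350280 and Cox6a1 at 115348981 on the minus strand. The last Sdha match and the ETS match of Cox6a1 therefore lie inside the GENCODE genes. In NPYtet replicate 5 Sdha was at 93.0 CPM, Cox6a1 at 423 CPM and Uqcrh at 793 CPM. A match is a description of the sequence and not of binding.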

How the data were processed

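PolyA RNA from whole skin of 10 mice was sequenced, and per the labels' protocols libraries were made with a directional kit from RNA of sufficient integrity. Per the submitters' processing notes the build was mm10 and the tools included DESeq2 1.30.1, STAR 2.5.2, bcl2fastq, Trimmomatic 0.36 and FastQC 0.11.8. The deposited files hold unnormalized counts, 1 library a file, by Ensembl ID. Annotation release, strand setting and handling of reads with several matches were not given in the sources used here. GENCODE M21 named 49412 of 49671 IDs, and the other 259 held 0.0189% of reads.

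Counts were scaled by TMM, filtered with filterByExpr (minimum count 10, minimum total 15) and fitted with edgeR 4.0.16 (R 4.3.3; robust quasi-likelihood, sex as labelled plus genotype, Benjamini-Hochberg over 18060 genes, threshold 0.05). SE is the log2 fold change divided by the root of F. Deviations used log2(CPM + 0.5). DESeq2 1.42.0, limma 3.58.1 voom and the other alternatives are in the closing section. The scripts were tested on simulated data. Labels name separate mice, and the replicate files differed beyond sampling noise. Numbers shared between the groups did not pair the mice (see the closing section).

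Transcript length was that of 1 transcript per gene: best APPRIS principal, best support level, then the shortest. A rule taking the longest was used first and was replaced after its length results had been seen, because it gave some genes models several times longer than their other principal transcripts; its values are in the closing section. The members, lists, tests and alternatives were chosen with earlier results of these data known. Genes were named by rule: all mitochondrial genes; per complex the highest level per length and the 3 subunits of smallest genotype p; 3 assembly factors of smallest p; the 5 highest and 5 lowest nuclear fold changes; listed isoforms; and per pathway list the 2 of smallest p. Of these, 2 genes are not reported here. Ndufs1, Sdhaf2, Sdhaf3, Ndufaf4 and Ndufa10 were named after their values were seen, and so were 3 promoters among the named members.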

Additional observations from a re-analysis of the deposited data

Results flagged for a closer look

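Libraries were compared within each genotype, and one was singled out when its gap to the nearest library exceeded 0.71 of the range of the 5. Chance singles out about 1 in 20 groups. The shares of counts were singled out in NPYtet replicate 5, with 8.05% for mitochondrial-encoded and 1.45% for nuclear-encoded genes. Of the 47 named members with reads, tested in 2 groups each, 41 cases arose: 37 in NPYtet replicate 5, 2 in WT replicate 2 and 2 in other libraries. Members were named partly by genotype p and fold change, which rest on NPYtet replicate 5, and genes of 1 library are not separate cases. The 41 cases therefore cannot be set against the rate of 1 in 20.

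For mitochondrial-encoded genes NPYtet replicate 5 was highest, in CPM, at 24856 for mt-Nd1, 18401 for mt-Nd2, 4.76 for mt-Nd3, 11461 for mt-Nd4, 9308 for mt-Nd5, 3512 for mt-Nd6, 27516 for mt-Cytb, 28521 for mt-Co1, 6.15 for mt-Co2, 5.36 for mt-Co3, 5.96 for mt-Atp6 and 0.132 for mt-Atp8, the last from 2 reads. mt-Nd4l was highest in NPYtet replicate 1 at 0.0492 CPM, where the other NPYtet libraries had 0.

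In complex I the same library was highest for Ndufb3 at 254, Ndufs4 at 240.4, Ndufa1 at 185, Ndufb9 at 225 and Ndufb4 at 86.8 CPM. In complex II it was highest for Sdhb at 188 CPM and lowest for Sdha at 93.0 CPM. In complex III it was highest for Uqcrb at 539, Uqcrh at 793 and Uqcr10 at 220.0 CPM, while among WT libraries replicate 2 was highest for Uqcrb at 116 CPM.

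In complex IV NPYtet replicate 5 was highest for Ndufa4 at 742, Cox7b at 587, Cox6c at 912, Cox4i1 at 719, Cox4i2 at 10.9, Cox6a1 at 423, Cox6a2 at 106, Cox6b1 at 804, Cox7a2 at 441 and Cox8a at 267 CPM. In complex V it was highest for Atp5l at 30.0 and Atp5mpl at 386 CPM. Among assembly factors it was highest for Sdhaf4 at 20.3, Sdhaf1 at 9.13 and Ndufaf2 at 29.0 CPM. WT replicate 2 was the highest WT library for Sdhaf1 at 4.86 CPM, and NPYtet replicate 2 was the highest NPYtet library for Ndufaf6 at 7.25 CPM.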

How the results depend on the processing

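The count of members called by genotype was 0 under every alternative run: DESeq2, limma voom with quality weights, RLE factors, total counts, scaling without the mitochondrial chromosome, no or a stricter filter, no sex term, the replicate block and each library left out. The median log2 fold change of mitochondrial-encoded members, 0.87, turned to -0.046 under limma voom and to -0.20 without WT replicate 2 and NPYtet replicate 5 together (an alternative chosen after seeing the data). It ran from -0.25 to 1.13 when 1 library was left out, the lowest without NPYtet replicate 5. For nuclear-encoded members, 0.19, these were -0.14, -0.072 and -0.18 to 0.34. The log2 ratio of the genomes, 0.35, turned to -0.062 without both libraries; other alternatives gave 0.15 to 0.39, and leaving out 1 library 0.066 to 0.49. The cause was not tested. The count by sex, 0, became 27 with no filter, 37 with DESeq2, 21 with limma voom and 1 without both libraries, and ran from 0 to 31 when 1 library was left out (31 without WT replicate 4, 13 without NPYtet replicate 2). Within males it ran from 0 to 15, the latter without NPYtet replicate 2. Of 45 named members tested, none of them called, 35 changed sign without NPYtet replicate 5, 32 under limma voom and at most 6 under the other alternatives; 33 did without both libraries.

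Same-numbered mice correlated, in their deviations from group means, at -0.29, 0.28, 0.70, 0.16 and 0.031 for numbers 1 to 5, and only 1 of 5 WT libraries matched its own number best, so the numbers were not taken as pairs. The replicate block gave medians of 0.40 and 0.08 and 0 calls.

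Under the transcript rule used first, which took the longest, short and long nuclear members differed by 1.52 in NPYtet replicate 5 and 0.89 in WT replicate 2, against 1.57 and 0.84 under the rule reported. Cox4i1 then had the highest level per length in complex IV, and the complex V median was 195 instead of 246 CPM per kb. Windows shared with other genes changed most for Atp5g1, from 7.63% to 59.6%. Depth limits the 6 mitochondrial genes of few reads, with at most 93 in a library.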
